A study of Mus musculus with 6 samples.

Results

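The step from mature B cell to antibody-secreting plasma cell was followed through 8 genes in a mouse leukemia of B cell progenitors: Prdm1, Xbp1, Mzb1, Jchain and Sdc1, which drive or mark the plasma cell, and Bach2, Bcl6 and Pou2af1, which serve the mature B cell. They were taken by symbol from a table of 26286 genes, in which all 8 were found. All 8 also passed the filter on low counts, which kept 12275 genes for testing. Of 6 libraries, 3 were from mice fed doxycycline (Dox) for 3 days, sorted as GFPmid cells, set against 3 from untreated mice, sorted as GFPhigh cells. All 6 held cells of the same tri-transgenic leukemia, A024, sorted from the bone marrow of Rag1 knockout mice, which form no mature B or T cells of their own but keep myeloid, erythroid and natural killer cells. The ages of the mice are not given in the labels. As background on the published model, the transgenes are an active form of Stat5 and a hairpin RNA against Pax5, which is linked to GFP, driven by a transactivator under the Vav promoter of blood cells and shut off by Dox. GFP gate and treatment changed together, so the effects of Dox, of Pax5 and of the gate cannot be told apart. Because all cells came from 1 leukemia, the p-values describe mice that carry that leukemia and no others.

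In normal B cells the 2 programmes oppose each other. Pax5 holds the B cell state and is known to repress Prdm1, Xbp1 and Jchain and to activate Bach2. Bach2 and Bcl6 repress Prdm1, whose protein Blimp-1 in turn silences Pax5 and Bcl6 and opens the secretory programme that Xbp1 expands. The comparison set Dox-treated against untreated mice and so bears on what these regulators did while Pax5 was restored.

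Total counts ran from 14185203 to 15612435 per library. Pax5 itself had 227.2, 281.2 and 230.6 CPM (counts scaled to a common library total) in Dox replicates 1, 2 and 3, against 153.8, 93.5 and 105.2 CPM in untreated replicates 1, 2 and 3. Of 12 markers of B lineage cells fixed as a list, 10 rose, 1 fell (Cd24a) and 1 was not called (Il7r). Over all genes tested, 27.0% were called higher and 26.6% lower. Levels of a gene in such bulk samples cannot separate fewer cells of a type from less RNA per cell.

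Start-site windows are shown for 5 members: Prdm1, Bcl6 and Pou2af1 as regulators, and Sdc1 and Jchain as the members that fell. The window of Bach2, which had the largest rise, is not shown. Each window runs from 250 bases before to 50 bases after a gene start, 5′ to 3′ on the strand of the gene, from RefSeq on GRCm38.p6, a later build than the mm9 of the counts. Capitals mark every match, on either strand, to 8 short motifs: the octamer ATGCAAAT read by Oct factors with Pou2af1, the same motif without its first base (TGCAAAT), the Bach and AP-1 site TGANTCA, the Maf recognition core TGCTGA, the part CCACG of the ER stress element, the Xbp1 core ACGTG, the Bcl6 and Stat palindrome TTCNNNGAA and the Prdm1 core GTGAAAG. The pairs ATGCAAAT and TGCAAAT, and CCACG and ACGTG, can overlap.
Prdm1, chr10:44458699-44458998, minus strand: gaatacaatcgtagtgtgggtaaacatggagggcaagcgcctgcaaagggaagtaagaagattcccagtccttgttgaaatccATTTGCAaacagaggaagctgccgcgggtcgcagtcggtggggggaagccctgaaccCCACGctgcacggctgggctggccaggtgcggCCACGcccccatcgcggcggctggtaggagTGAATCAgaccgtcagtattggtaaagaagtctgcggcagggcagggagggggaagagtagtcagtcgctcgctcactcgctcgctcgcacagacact
Bcl6, chr16:23981234-23981533, minus strand: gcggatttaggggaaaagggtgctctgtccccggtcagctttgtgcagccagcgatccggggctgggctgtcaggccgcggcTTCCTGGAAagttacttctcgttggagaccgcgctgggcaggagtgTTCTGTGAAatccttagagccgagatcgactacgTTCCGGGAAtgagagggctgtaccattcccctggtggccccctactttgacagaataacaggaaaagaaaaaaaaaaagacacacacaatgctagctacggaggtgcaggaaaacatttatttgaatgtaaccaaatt
Pou2af1, chr9:51213440-51213739, plus strand: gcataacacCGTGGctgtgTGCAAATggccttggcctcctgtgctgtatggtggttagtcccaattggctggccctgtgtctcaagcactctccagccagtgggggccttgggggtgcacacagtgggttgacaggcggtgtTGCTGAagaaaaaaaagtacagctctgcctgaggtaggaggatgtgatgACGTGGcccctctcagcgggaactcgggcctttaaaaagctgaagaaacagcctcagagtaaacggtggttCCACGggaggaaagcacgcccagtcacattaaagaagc
Sdc1, chr12:8771146-8771445, plus strand: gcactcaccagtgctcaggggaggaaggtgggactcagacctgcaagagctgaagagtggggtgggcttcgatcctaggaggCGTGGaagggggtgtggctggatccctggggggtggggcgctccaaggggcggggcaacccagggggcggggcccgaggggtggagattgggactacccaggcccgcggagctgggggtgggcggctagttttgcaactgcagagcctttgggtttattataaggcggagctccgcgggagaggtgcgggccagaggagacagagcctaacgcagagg
Jchain, chr5:88527848-88528147, minus strand: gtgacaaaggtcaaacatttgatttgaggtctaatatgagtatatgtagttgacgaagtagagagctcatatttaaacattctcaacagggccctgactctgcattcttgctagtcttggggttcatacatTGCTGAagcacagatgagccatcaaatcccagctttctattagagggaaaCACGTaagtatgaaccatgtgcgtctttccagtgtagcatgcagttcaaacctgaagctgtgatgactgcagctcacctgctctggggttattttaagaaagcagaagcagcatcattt

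The Prdm1 window held TGANTCA once, as TGAATCA beginning 48 bases before the start, a site type found in 7.81% of all 32851 windows. The Bcl6 window shown held the palindrome TTCNNNGAA 3 times, beginning 168, 122 and 88 bases before the start, against 8.3% of all windows with at least 1. A further Bcl6 window, not shown, held it once, with CCACG once and ACGTG 2 times. That window (chr16:23988803-23989102) belongs to a start farther 5′ on the strand of the gene, so the window shown is that of a downstream start. The Bach2 window held the palindrome once. The Pou2af1 window held TGCAAAT beginning 231 bases before the start, and the Prdm1 window held it on the other strand 167 bases before, while 4.02% of all windows hold it. The Sdc1 window matched only CCACG, once, which 32.8% of windows hold, and the Jchain window matched TGCTGA (19.5% of windows) and ACGTG (19.6% of windows) once each. The full octamer (1.74% of windows) and GTGAAAG (4.24% of windows) matched in none of the 8 windows of the 7 members searched. Xbp1 held TGCTGA once, and Mzb1 was not searched. These are matches of letters and say nothing of what is bound there.

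Of the 8 genes, 5 were called higher after Dox (Prdm1, Xbp1, Mzb1, Bach2 and Pou2af1), 2 were called lower (Sdc1 and Jchain) and 1, Bcl6, was not called. A gene was called at an adjusted p under 0.05 by the edgeR quasi-likelihood test over all genes tested. The background was wide: 27.0% of all genes tested were called higher, 26.6% lower and 53.6% in either direction. The members did not split by programme, since regulators of both sides were higher while the plasma cell genes Sdc1 and Jchain were lower.

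**Figure D1:**
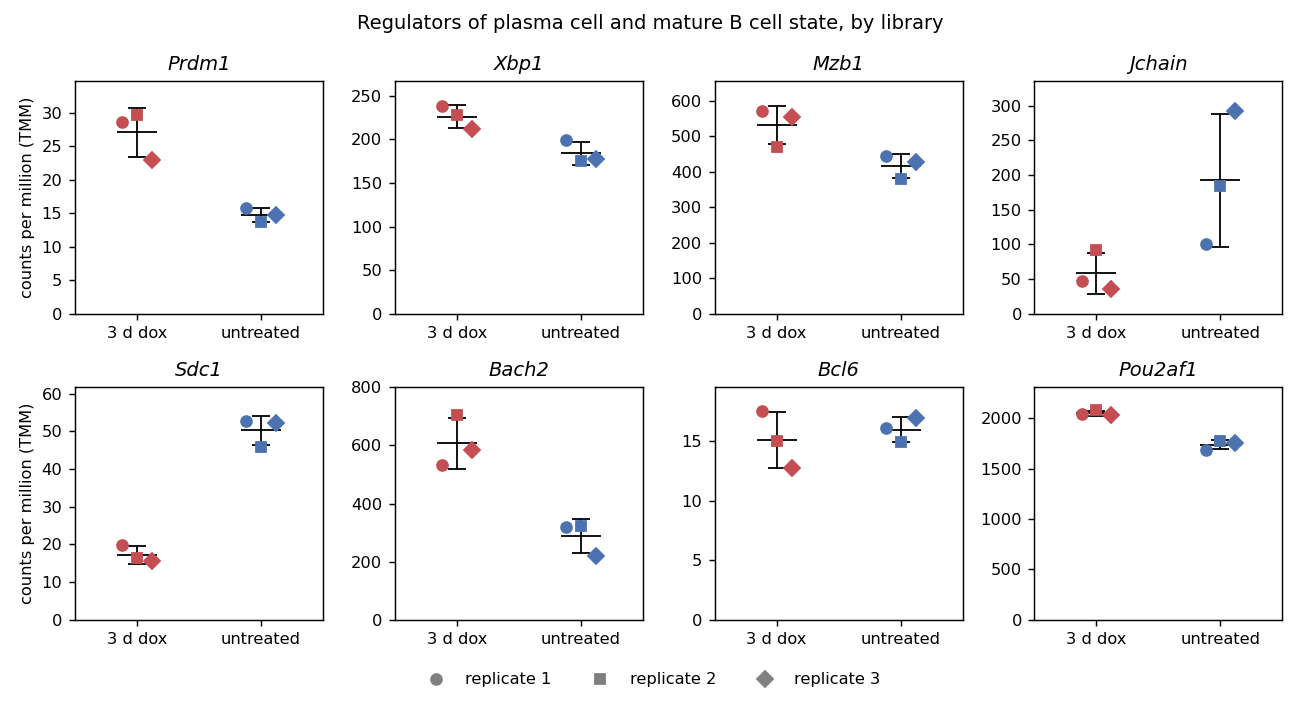
CPM after TMM scaling (trimmed mean of M values) of the 8 regulators in each of 3 libraries after 3 days of Dox (red) and 3 untreated libraries (blue), with a bar at the mean and whiskers of 1 SD. Marker shape gives the replicate number. The groups stand apart for 7 genes and overlap for Bcl6, and the untreated Jchain values spread from 100.4 to 291.7 CPM.

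Prdm1 (Entrez Gene 12142), which encodes Blimp-1, the zinc finger repressor that installs plasma cell fate, was higher after Dox. It had 28.6, 29.7 and 22.9 CPM in Dox replicates 1, 2 and 3, against 15.8, 13.8 and 14.7 CPM in untreated replicates 1, 2 and 3. Every Dox library lay above every untreated library. The rise was 1.83-fold (log2 fold change 0.87, SE 0.12, adjusted p = 3e-04, edgeR). Counts were 435, 426 and 357 in Dox libraries and 226, 205 and 216 in untreated libraries, so counting error alone comes to 4.98% of a Dox value and 6.81% of an untreated value. A larger rise was seen for 10.2% of all genes tested.

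Xbp1 (22433), the transcription factor of the unfolded protein response that plasma cells need for secretion, rose by less. It had 237.9, 228.2 and 211.5 CPM after Dox, against 199.6, 174.7 and 177.1 CPM in untreated mice. The lowest Dox value, in replicate 3, lay above the highest untreated value, in replicate 1. The rise was 1.23-fold (log2 fold change 0.30, SE 0.08, adjusted p = 0.01, edgeR), and it was not called without untreated replicate 2 (adjusted p = 0.0536) or without untreated replicate 3 (adjusted p = 0.0506). The Xbp1 protein becomes fully active only after Ire1 splices its messenger RNA, and counts per gene do not distinguish the spliced form.

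Mzb1 (69816), a chaperone partner of the endoplasmic reticulum in B cells that helps antibody assembly, was also higher. Its values were 571.9, 470.9 and 553.4 CPM after Dox and 445, 378.7 and 427.2 CPM in untreated mice, and again the groups did not overlap. The change was 1.28-fold (log2 fold change 0.35, SE 0.09, adjusted p = 0.0117, edgeR), with an adjusted p of 0.0579 without untreated replicate 2. Per length, Mzb1 reads outnumbered Xbp1 reads by 4.77, 4.10 and 5.20 times in Dox libraries and by 4.43, 4.31 and 4.79 times in untreated libraries, ranges that overlap.

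Sdc1 (20969), which encodes CD138, the surface proteoglycan by which plasma cells are sorted and which mouse B cell precursors also carry, fell. It measured 19.9, 16.3 and 15.5 CPM in the Dox libraries, against 52.8, 45.8 and 52.3 CPM in the untreated libraries. The highest Dox value was below the lowest untreated value by a wide margin compared with the SD of 2.33 CPM after Dox and 3.88 CPM in untreated mice. On the log2 scale the change was -1.55 (SE 0.11, edgeR adjusted p = 1.02e-05), and 0.741% of all genes tested fell further. Of the 8 genes it had the smallest p.

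Jchain (16069), the joining chain of polymeric IgM and IgA, fell as well, with far more spread between mice. It had 47.8, 91.5 and 35.7 CPM after Dox, and 100.4, 183.9 and 291.7 CPM in untreated mice. The groups did not overlap, although the highest Dox value, in replicate 2, came close to the lowest untreated value, in replicate 1. The change was -1.72 on the log2 scale (SE 0.41, edgeR adjusted p = 0.00597), and leaving out each library in turn gave values from -2.20 to -1.29, all called. Within a group the coefficient of variation was 50.3% after Dox and 50% in untreated mice, where counting error accounts for 3.62% and 2.08%. For the other 7 genes that coefficient was 20% or less in either group.

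Bach2 (12014), the repressor that with small Maf proteins holds back Prdm1 and which Pax5 activates in B cell precursors, had the largest rise of the 8 in the fit to all libraries. It reached 534.2, 703.5 and 584 CPM after Dox, against 317.7, 324 and 221.1 CPM in untreated mice. All Dox libraries exceeded all untreated libraries. The rise was 2.11-fold (log2 fold change 1.08, SE 0.15, adjusted p = 0.000361, edgeR), and 7.39% of all genes tested rose further. Whether counting used strand is not given in the sources used here. The antisense gene Bach2os, which overlaps Bach2, had 75 counts in all 6 libraries together, so its reads are few beside the 3253 or more counts of Bach2 in each library.

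Bcl6 (12053), the repressor of the germinal centre B cell, was the member that was not called. It had 17.5, 15.04 and 12.7 CPM after Dox and 16.1, 14.9 and 16.9 CPM in untreated mice, and the untreated values lay within the range of the Dox values. Its difference on the log2 scale was -0.08 (SE 0.13, 95% interval -0.38 to 0.22, edgeR adjusted p = 0.63). The interval includes 0 and stops short of the fold changes of Prdm1 and Bach2.

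Pou2af1 (18985), the coactivator OCA-B that joins Oct factors at immunoglobulin promoters, changed by a small amount. It stood at 2036, 2077 and 2027 CPM after Dox, against 1683, 1775 and 1756 CPM in untreated mice. Its replicates were the closest of the 8 genes, with a coefficient of variation of 1.29% after Dox and 2.81% in untreated mice. The rise was 1.18-fold (log2 fold change 0.24, SE 0.07, adjusted p = 0.0229, edgeR). It was not called without untreated replicate 1, 2 or 3 (adjusted p = 0.0616, 0.0634 and 0.0756).

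**Figure D2:**
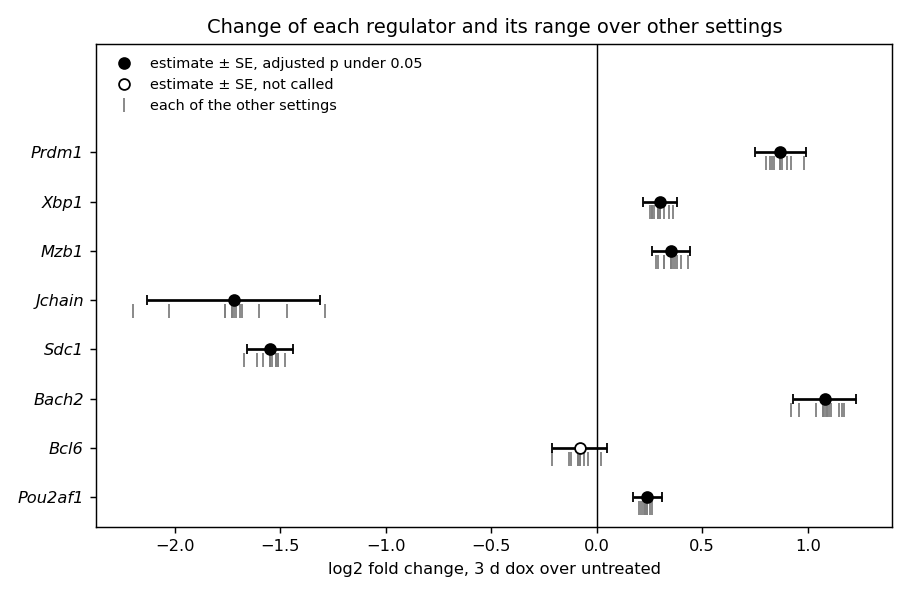
Log2 fold change of each regulator, 3 days of Dox over untreated, as a point with its SE (filled where called), with a grey tick for each of the 14 other settings or left-out libraries. Sdc1 and Jchain lie far left of 0, Prdm1 and Bach2 far right, Xbp1, Mzb1 and Pou2af1 between 0.20 and 0.43 in every setting, and Bcl6 between -0.21 and 0.02.

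Exact two-sided permutation tests of the CPM values gave p = 0.1 for the 7 called genes, the smallest value that 3 libraries against 3 allow, and p = 0.7 for Bcl6. Over all genes tested, the groups did not overlap for 62.2%, with every Dox library above for 31.2% and below for 31.0%.

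The balance between opposing regulators, and between genes of the plasma cell, was read within each library. It was taken as a ratio of RPKM, the CPM per kilobase of gene length. Bach2 exceeded Prdm1 by 11.3, 14.4 and 15.5 times in Dox libraries and by 12.2, 14.3 and 9.12 times in untreated libraries. Both genes rose, and the ranges of their ratio overlapped. The ratio of Bcl6 to Prdm1 was 0.957, 0.794 and 0.873 after Dox, against 1.59, 1.7 and 1.8 in untreated mice, with no overlap. The ratio of Sdc1 to Prdm1 was 1.17, 0.924 and 1.14 after Dox, against 5.62, 5.61 and 5.99 in untreated mice. This separation follows from the rise of Prdm1 and the fall of Sdc1 given above and is no further evidence for either. The ratio of Jchain to Xbp1 was 0.172, 0.343 and 0.145 after Dox and 0.431, 0.901 and 1.41 in untreated mice.

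Per length, the level of Pou2af1 was the highest of the 8 in both groups, at 797.6 ± 10.3 RPKM after Dox and 677.3 ± 19.1 RPKM in untreated mice (SD, n = 3 each), above 99.5% and 99.4% of all genes tested. Mzb1 followed at 587.3 ± 59.3 RPKM after Dox and 460.3 ± 37.9 RPKM in untreated mice, and Xbp1 at 125.5 ± 7.41 RPKM after Dox and 102.1 ± 7.63 RPKM in untreated mice. Bach2 was next after Dox (71.5 ± 10.2 RPKM) but below Jchain in untreated mice (33.9 ± 6.79 RPKM). Jchain stood at 27.8 ± 14 RPKM after Dox and 91.3 ± 45.6 RPKM in untreated mice, where its range overlapped that of Xbp1. The lowest were Sdc1 (5.63 ± 0.763 RPKM after Dox, 16.5 ± 1.27 RPKM untreated), Prdm1 (5.26 ± 0.712 RPKM after Dox, 2.87 ± 0.199 RPKM untreated) and Bcl6 (4.595 ± 0.725 RPKM after Dox, 4.86 ± 0.311 RPKM untreated). After Dox neither Sdc1 and Prdm1 nor Prdm1 and Bcl6 differed beyond their ranges, whereas in untreated libraries all 3 stood apart. Prdm1, the master regulator of the plasma cell, was above 27.1% of all genes tested after Dox, while Mzb1 was above 99.3%.

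**Figure D3:**
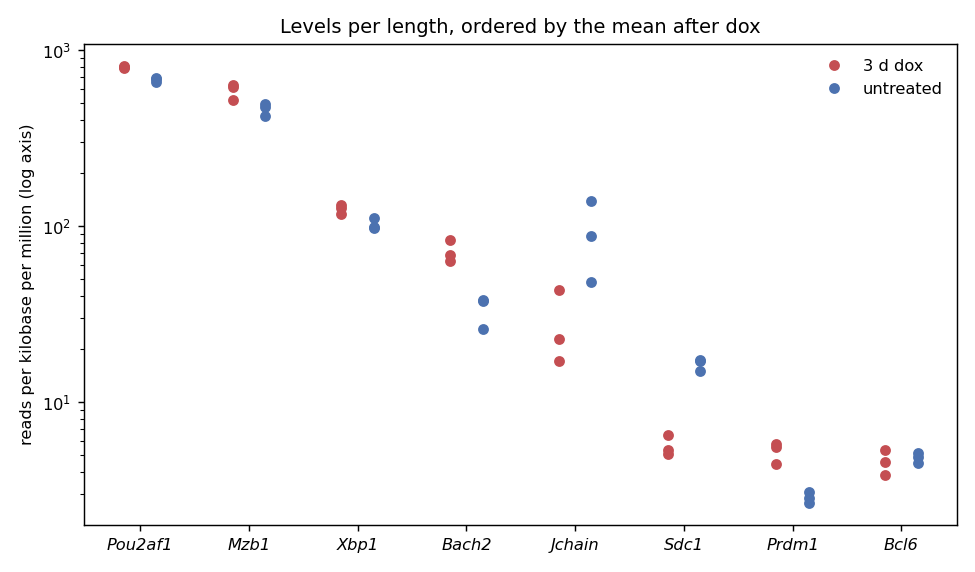
RPKM of each regulator in each library on a log axis, Dox (red) left of untreated (blue), ordered by the mean after Dox. Pou2af1 and Mzb1 lie at 418 or more in every library and Bcl6 and Prdm1 at 5.77 or less, and Jchain and Sdc1 are the genes whose untreated values lie above the Dox values.

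Of 22 other genes of plasma cell fate and surface, 20 were tested, 10 rose, 1 fell and 9 were not called, where 27.0% of all genes were called higher and 26.6% lower, with a median log2 fold change of 0.39 beside 0.01 over all genes. Trp53inp1, a stress-induced gene high in plasma cells, had 962.8 ± 13.4 CPM after Dox and 450 ± 58.9 CPM in untreated mice (SD, n = 3 each). Cd38, a surface enzyme of B and plasma cells, had 140.1, 72.05 and 95.01 CPM after Dox, against 31.7, 13.4 and 21.0 CPM in untreated mice, a log2 fold change of 2.22 (SE 0.31, adjusted p = 0.000327, edgeR). Cxcr4, the homing receptor for marrow, rose by 0.49 (SE 0.10) on the log2 scale. Irf4, the factor that acts with Blimp-1 in plasma cells and was chosen here after its values were seen, had 1401, 1948 and 1507 CPM after Dox, against 996.5, 1154 and 976.3 CPM in untreated mice. Tent5c, a poly(A) polymerase that stabilises immunoglobulin messages, was the gene that fell, at 7.502, 4.11 and 4.74 CPM after Dox, against 14.8, 9.33 and 10.1 CPM in untreated mice (log2 fold change -1.06, SE 0.25). Without untreated replicate 2 only 6 of these genes were called higher, and without Dox replicate 2, 4 were called lower. Tnfrsf17, which encodes the plasma cell receptor BCMA, had 0 counts in the Dox libraries and 1 in the untreated libraries, and Cd28 had 0 in all.

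Of 32 genes of the Xbp1 and secretory pathway, 30 were tested, 14 rose, 2 fell and 14 were not called, and the median log2 fold change was 0.21. Over all genes tested, 27.0% were called higher and 26.6% lower. Ero1b, an oxidase that forms disulfides in the endoplasmic reticulum, had 253.3, 200.9 and 228.3 CPM after Dox, against 98.3, 85.6 and 97.6 CPM in untreated mice, a log2 fold change of 1.28 (SE 0.10, adjusted p = 1.31e-05, edgeR). Pdia4, a disulfide isomerase, rose by 0.60 (SE 0.09) and Edem1, which sends misfolded proteins to degradation, by 0.44 (SE 0.07). Ssr1, a subunit of the translocon-associated complex, changed by -0.27 (SE 0.07) and Txndc5, a disulfide isomerase, by -0.24 (SE 0.08). The number called higher was 9 without Dox replicate 1, 8 without Dox replicate 3, 9 without untreated replicate 2 and 7 without untreated replicate 3, and the number called lower was 1 without Dox replicate 1, untreated replicate 2 or untreated replicate 3.

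Factors of mature and germinal centre B cells rose or were not called. Of 26, 22 were tested, 11 rose, 0 fell by the edgeR test and 11 were not called, with a median log2 fold change of 0.25. At an unadjusted p under 0.05, 0 were lower, and DESeq2 and limma voom also called 0 lower. Spib, an ETS factor of B cells that also restrains plasma cell genes, had 1107, 947.6 and 856.9 CPM after Dox, against 535.1, 459.7 and 476.9 CPM in untreated mice. Bcl11a, a zinc finger factor of early B cells, had 80.0, 94.0 and 67.6 CPM after Dox, against 33.0, 38.4 and 41.3 CPM in untreated mice, and Ikzf3, which encodes Aiolos, rose by 0.76 (SE 0.09).

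Of 18 partners of Bcl6 and Bach2, 15 were tested, 3 rose (Crebbp, Bcor and Ep300), 3 fell (Hdac3, Mafk and Ctbp1) and 9 were not called, with a median log2 fold change of 0.01. These shares were no higher than the 27.0% and 26.6% of all genes called higher and lower. Crebbp, an acetyltransferase that counters Bcl6, rose by 0.38 (SE 0.09), Bcor, a Bcl6 corepressor, by 0.29 (SE 0.07) and Ep300, an acetyltransferase, by 0.35 (SE 0.09). Hdac3, a histone deacetylase, changed by -0.23 (SE 0.07), Mafk, a small Maf partner of Bach2, by -0.27 (SE 0.09) and Ctbp1, a corepressor, by -0.17 (SE 0.07). With each library left out in turn, 3 were called higher each time, whereas the number called lower was 0 without Dox replicate 1 and 1 without Dox replicate 3 or any untreated replicate. With all libraries kept, the number called lower was 1 with upper-quartile scaling. It was 4 with total counts alone, with no low-count filter or with the DESeq2 test.

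Among genes known as targets of Bcl6 or Bach2, 19 of 23 were tested, 11 rose, 4 fell and 4 were not called, with a median log2 fold change of 0.53. The share that fell was below the 26.6% of all genes called lower, and 27.0% of all genes were called higher. Klf2, a factor of resting lymphocytes, had 77.5, 72.7 and 61.2 CPM after Dox, against 10.5, 8.12 and 8.43 CPM in untreated mice. Cd69, which keeps lymphocytes in tissue, had 83.4, 76.7 and 72.5 CPM after Dox, against 24.9, 21.5 and 19.6 CPM in untreated mice. The genes that fell were Chek1 (log2 fold change -1.51, SE 0.08), Cdkn1a (-0.85, SE 0.11), Trp53 (-0.42, SE 0.06) and Atr (-0.35, SE 0.10). Nfkb1 (0.15), Id2 (-0.62), Ifngr1 (0.08) and Bcl2 (0.32) were not called.

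**Figure D4:**
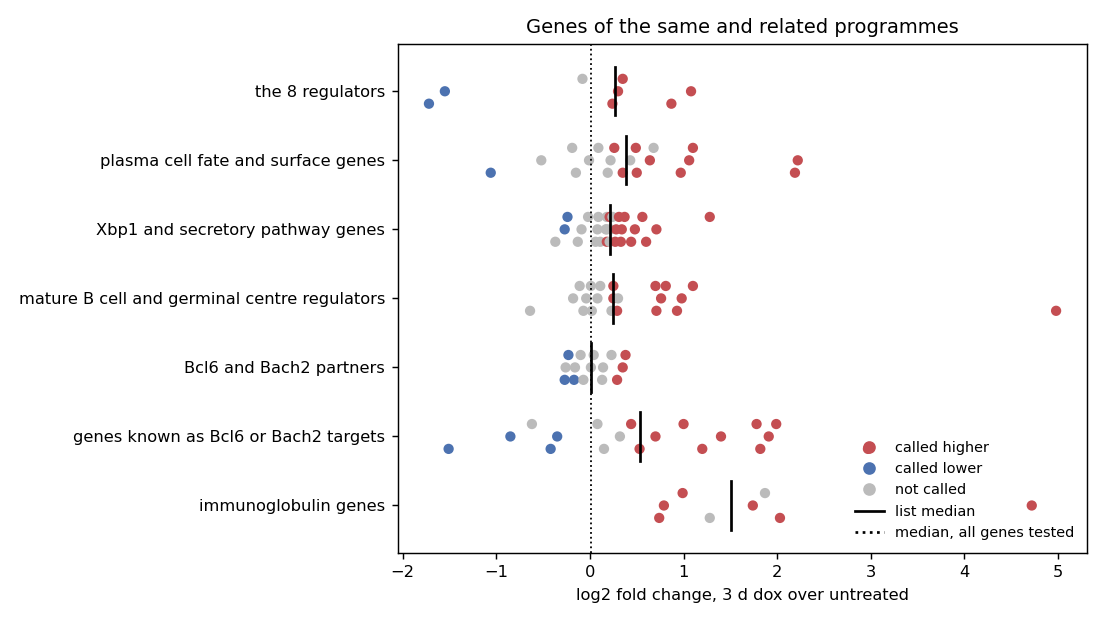
Log2 fold changes, 3 days of Dox over untreated, of the tested genes in the list of 8 regulators and in 6 related lists, coloured by call, with a bar at each list median and a dotted line at the median of all genes tested (0.01). The medians run from 0.01 for Bcl6 and Bach2 partners to 1.51 for immunoglobulin genes, and the immunoglobulin point near 5, Ighg2b, rests on 3 untreated counts.

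Of 13 immunoglobulin genes, whose product Jchain, Mzb1 and Pou2af1 serve, 8 were tested, 6 rose, 0 fell (0 also at an unadjusted p under 0.05 in edgeR and by DESeq2 and limma voom) and 2 were not called (Iglc1 and Iglc2), with a median log2 fold change of 1.51. Over all genes tested, 27.0% were called higher and 26.6% lower. Ighg2b, with 1, 2 and 0 untreated counts, passed the filter on low counts only through the Dox libraries. It could hardly have been called lower, yet it is among those that rose. Ighm, the heavy chain of IgM, had 3878, 3790 and 3275 CPM after Dox, against 2011, 1790 and 1700 CPM in untreated mice, while Jchain, which joins IgM units, was lower in the same libraries. Ighd, the heavy chain of IgD, had 35.9, 28.1 and 28.9 CPM after Dox, against 11.7, 7.58 and 8.57 CPM in untreated mice. Igll1, a surrogate light chain of B cell precursors, rose by 0.79 (SE 0.09). Ighg1 and Ighe, heavy chains of switched B and plasma cells, had 0 counts in every library. Immunoglobulin genes have close copies whose reads counting can split, so the single values of the light chain genes are uncertain.

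Markers of other marrow cells also differed between the groups. Of 11 macrophage markers tested, 10 rose, and the list summed to between 53.95 and 116.2 CPM after Dox and between 20.4 and 30.1 CPM in untreated mice. Of 10 neutrophil markers tested, 9 rose, with sums of 566.5, 121.5 and 267.7 CPM in Dox replicates 1, 2 and 3 and 122.9, 95.2 and 111.9 CPM in untreated replicates 1, 2 and 3, led by S100a9 and S100a8. The number of neutrophil markers called higher was 4 without Dox replicate 1, 3 without untreated replicate 2 and 5 by limma voom. Mzb1 followed the order of both sums within both groups, being highest in replicate 1 and lowest in replicate 2, and so did Cd38, Tent5c and Ero1b. Without Dox replicate 1, where both marker sums peaked, 9 macrophage markers were still called higher. The macrophage sums in Dox replicates 2 and 3 (53.95 and 67.55 CPM) stayed above those of every untreated library. In that fit the log2 fold change was 0.83 for Prdm1 (adjusted p = 0.00111), 0.25 for Xbp1 (adjusted p = 0.0422) and 0.29 for Mzb1 (adjusted p = 0.0474, all edgeR). The part of these cells in the rises of the regulators and of their lists was not tested.

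The lists of the remaining cell types were each dominated by 1 or 2 genes. Erythroid markers summed to between 308.4 and 409.6 CPM after Dox and between 1042 and 1180 CPM in untreated mice, most of it Car2, and T and NK cell markers to between 101.4 and 155.3 CPM after Dox and between 283.6 and 365.6 CPM in untreated mice, most of it Lck, with Cd3e and Cd8a at 0 in all libraries. Plasmacytoid dendritic cells, which express Jchain and Mzb1, gave 99.9 to 120.3 CPM after Dox and 76.8 to 100.4 CPM in untreated mice, of which Ptprs and Il3ra made up most. Their defining gene Siglech had 5 counts in all Dox libraries and 1 in all untreated libraries. Stromal and epithelial markers, where Sdc1 is also expressed, gave 131.8 to 161.8 CPM after Dox and 98.4 to 106 CPM in untreated mice, nearly all of it Pecam1, and Pdgfra and Krt8 had 0 counts.

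The genes whose profile over the 6 libraries was most like that of each member were named by the Pearson correlation of log2 CPM, as a description over 6 points that share the contrast between groups. They were Vamp5 and Card19 for Prdm1 (both 0.998), Sash3 (0.999) and Cert1 (0.996) for Xbp1, and Coro1a (0.997) and Atp6v1d (0.993) for Mzb1. For the members that fell they were Ss18l2 (0.9996) and Prdx2 (0.997) for Sdc1, and Ak8 (0.996) and Cc2d1b (0.993) for Jchain. For the B cell regulators they were Tor1aip2 (0.995) and Zdhhc13 (0.994) for Bach2, Preb (0.983) and Ryr1 (0.962) for Bcl6, and Synrg and Sla (both 0.998) for Pou2af1. Of 11682 genes compared, 878 (7.52%) exceeded 0.95 for Prdm1 and 1031 (8.83%) for Sdc1, against 98 (0.839%) for Jchain and 4 for Bcl6.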

How the data were processed

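RNA was sequenced from sorted leukemia cells of 6 mice. The authors deposited whole-number counts of reads per Entrez gene with a gene length, and the 6 files of single libraries hold the same counts as the table of the series. The tools listed per the submitters' processing notes are featureCounts and CASAVA 1.8.2, with build mm9. No source used here gives the aligner, the annotation or the strandedness of counting. Symbols came from RefSeq (GRCm38.p6), which matched 24176 of 26286 identifiers.

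Genes were filtered with filterByExpr (minimum count 10), scaled by TMM and tested for treatment by quasi-likelihood in edgeR 4.0.16 (R 4.3.3), without covariates, with Benjamini-Hochberg adjustment over 12275 genes. Fold changes are Dox over untreated, the SE is the log2 fold change divided by the root of F, and intervals are 95%. RPKM are CPM divided by the deposited length in kilobases. No set test was run on any list. Some single genes of the lists are counted but not reported here by name.

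Named are the 8 members, Pax5, the 3 genes of smallest p in each related list and genes behind counts of 5 or fewer. Also named are the 1 or 2 most abundant markers of a list and the 2 genes most correlated with each member. A few further genes of the lists are named for points made where they appear. The members and lists were chosen with earlier results of these data known. Alternatives were DESeq2 1.42.0 (size factors, and its test), upper-quartile scaling, total counts, no filter, 1 CPM in 3 libraries, limma 3.58.1 voom, the replicate number as a block, and each library left out. The code was tested on simulated data.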

Additional observations from a re-analysis of the deposited data

How the results depend on the processing

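The directions of the 8 regulators were the same in all 14 alternatives, except that Bcl6, never called, ranged from -0.21 to 0.02 on the log2 scale as libraries were left out and was positive (0.02) without Dox replicate 3. The calls of Prdm1, Sdc1, Jchain and Bach2 held throughout. With libraries left out, the log2 fold change was 0.25 to 0.36 for Xbp1, 0.28 to 0.43 for Mzb1 and 0.21 to 0.25 for Pou2af1, which was also not called with no low-count filter (0.20, adjusted p = 0.0619). Regulators called higher then numbered 2 to 5: 2 without untreated replicate 2 and 3 without untreated replicate 3. Plasma cell fate genes called were 6 to 10 higher and 1 to 4 lower, secretory genes 7 to 16 higher and 1 to 2 lower, and Bcl6 and Bach2 partners 0 to 2 lower. With all libraries kept, 1 partner was called lower with upper-quartile scaling. The number was 4 with total counts alone, with no low-count filter or with the DESeq2 test. The cause of these shifts, beyond fewer samples in each fit, was not tested. Over all genes, 2693 to 3534 were called higher and 2791 to 3441 lower.

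Whether the replicate numbers pair the samples was not settled. Deviations of same-numbered libraries correlated at 0.31, 0.29 and -0.04 for replicates 1, 2 and 3, and those of replicates 1 and 2 crossed at -0.34 and -0.28. Replicates 1 and 2 thus shared some deviation by number, whereas replicate 3 did not. The main fit used no pairing. With the replicate block, 3434 genes were called higher and 3356 lower, 5 regulators were higher and 2 lower, and immunoglobulin genes called higher were 8 of 8 tested, Iglc1 and Iglc2 included. The order of levels per length was the same for all 8 genes with total counts or with TPM. Counting error alone came to 6.69% of a Bcl6 value after Dox and 6.55% in untreated mice.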

Other observations

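The lambda light chain genes varied widely between mice of a group. Iglc1 had 310.7, 18.1 and 87.1 CPM in Dox replicates 1, 2 and 3, and 97.0, 0.872 and 16.4 CPM in untreated replicates 1, 2 and 3. Iglc3 had 195.6, 39.5 and 73.2 CPM after Dox, and 49.98, 5.03 and 20.5 CPM in untreated mice. In both groups replicate 1 was highest and replicate 2 lowest, the order of the neutrophil and macrophage marker sums. Igkc, the kappa constant gene, did not share this spread, with 578.3, 576.7 and 472.1 CPM after Dox and 332.2, 340.7 and 298.4 CPM in untreated mice. Ighg2b, a switched heavy chain, had 91 counts in the Dox libraries and 3 in the untreated libraries, a ratio of 29.5 (exact binomial 95% interval 9.78 to 146, counting error only). These genes were chosen after their values were seen, and the source of the differences was not tested.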
